A study of Mus musculus with 18 samples.

Results

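The uroplakins are the membrane proteins of the urothelial plaque, and 5 of their genes were followed here across mouse bladders after chemical injury and on a vitamin A-enriched diet. The genes were taken by name from a count table of 60750 features: Upk1a, Upk1b, Upk2, Upk3a and Upk3b. All 5 were found and all 5 passed the filter on low counts, with 4763 to 79260 reads per gene and library. In the plaque, the tetraspanins uroplakin Ia and Ib each bind a partner with a single membrane span: uroplakin Ia pairs with uroplakin II, and uroplakin Ib with uroplakin IIIa or IIIb. The pairs assemble into particles, which pack into the rigid plaques that cover the apical surface of umbrella cells, the outermost cells of the urothelium, and form part of its barrier to urine. Uroplakin Ia also carries the sugar that the FimH adhesin of uropathogenic Escherichia coli binds, and Upk3b and Upk1b are made in mesothelium as well as in urothelium.

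Total RNA of whole bladders came from wild-type female BALB/c mice aged 8 weeks, in 6 groups of 3 libraries. The groups were cyclophosphamide (CP, 150 mg/kg, injected into the peritoneum) with collection after 1 day on the vitamin A diet or the normal diet, CP with collection after 3 days on either diet, and saline with collection after 1 day on either diet. CP is a chemotherapy drug whose breakdown products are concentrated in urine, where they damage the bladder lining. The enriched diet began 1 week before the injection, and its supplement is named as 566081 UI of retinyl acetate per kg in the sample labels but as retinyl palmitate at 36 times the usual amount in the series text. Saline bladders were taken after 1 day only, so time since injection also separates the 3-day groups from saline. The labels number biological replicates. Mice were kept 3 per cage, and the sample labels used here do not say which mice shared a cage. An effect of cage therefore cannot be told apart from one of group or diet.

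Libraries held 19554132 to 34598952 reads in the count table. The bladder wall's main tissues were all present: the summed level of 10 smooth muscle genes was 10165 to 34626 CPM (reads of a gene scaled to library size with TMM, the trimmed mean of M-values), and that of 12 general epithelial genes was 5271.5 to 13488 CPM. Mitochondrial genes took 1.68 to 3.82% of counts, with the highest share in vitamin A replicate 3 at 1 day after CP, and vitamin A replicate 2 at 3 days after CP had the lowest mean correlation with its own group (0.948). Changes below are log2 ratios with standard errors from edgeR's quasi-likelihood test over 19323 named genes, and a gene was called at a Benjamini-Hochberg adjusted p under 0.05. Standard errors and p-values use 1 estimate of spread per gene from all 18 libraries, not the spread of only the groups compared. Because these are bulk tissues, fewer umbrella cells and less uroplakin RNA per cell cannot be told apart.

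The 5 genes lie on 5 chromosomes in the deposited table (GRCm39). Upk1a spans chromosome 7 from 30302517 to 30312159 on the minus strand, Upk1b chromosome 16 from 38593544 to 38620565 on the minus strand, and Upk2 chromosome 9 from 44364012 to 44366064 on the minus strand. Upk3a spans chromosome 15 from 84901342 to 84906761 on the plus strand, and Upk3b chromosome 5 from 136067350 to 136073847 on the plus strand. Upk3a overlaps the antisense gene Gm52194, which had at most 365 reads in any library against 7279 or more for Upk3a; whether counting used strand is not given, so reads of this pair cannot be told apart. The other 4 genes overlap no listed feature.

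RefSeq promoter windows, from 250 bases before to 50 bases after the start (GRCm38.p6), were found for 3 of the 5 genes: Upk1a, Upk3a and Upk3b. They are shown because all 3 genes were called lower 1 day after CP. They are written 5′ to 3′ along the gene's own strand with motif matches in capitals, at chr7:30612685-30612984 (minus strand), chr15:85016891-85017190 (plus strand) and chr5:136038246-136038545 (plus strand).
Upk1a: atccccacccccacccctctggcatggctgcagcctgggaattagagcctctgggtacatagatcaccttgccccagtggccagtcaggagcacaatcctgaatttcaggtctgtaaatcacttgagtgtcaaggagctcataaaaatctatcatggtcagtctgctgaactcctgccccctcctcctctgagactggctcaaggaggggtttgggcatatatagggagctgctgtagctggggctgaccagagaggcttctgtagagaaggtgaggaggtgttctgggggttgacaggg
Upk3a: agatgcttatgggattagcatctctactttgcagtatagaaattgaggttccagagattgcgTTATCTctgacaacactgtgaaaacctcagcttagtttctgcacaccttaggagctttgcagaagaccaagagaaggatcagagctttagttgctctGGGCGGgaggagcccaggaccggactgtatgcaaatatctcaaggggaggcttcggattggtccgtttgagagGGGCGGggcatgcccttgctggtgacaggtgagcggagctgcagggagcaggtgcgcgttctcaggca
Upk3b: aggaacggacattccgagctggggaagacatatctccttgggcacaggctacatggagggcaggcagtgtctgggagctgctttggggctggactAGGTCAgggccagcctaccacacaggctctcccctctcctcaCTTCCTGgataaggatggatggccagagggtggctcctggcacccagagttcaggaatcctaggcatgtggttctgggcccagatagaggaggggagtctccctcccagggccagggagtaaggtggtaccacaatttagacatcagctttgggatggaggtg

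Motifs were searched on both strands of these windows and of all 32851 RefSeq promoter windows of the same length. The Upk3a window held GGGCGG, the GC box, at -91 to -86 and at -18 to -13 from the start, a match found in 35.7% of all windows. It also held AGATAA, the GATA factor motif, on the opposite strand at -188 to -183, as 11.2% of all windows did. The Upk3b window held AGGTCA, the hexamer read by nuclear receptors, at -155 to -150, and CAGGAAG, an ETS factor motif, on the opposite strand at -113 to -107, found in 16.3% and 13.3% of all windows. The Upk1a window held neither these nor TATAAA (13.6% of all windows) nor AACCGG, the grainyhead core (6.83%). No window of the 3 held tandem AGGTCA hexamers spaced by 1, 2 or 5 bases, which 0.0396%, 0.00913% and 0.00913% of all windows held, nor with 1 mismatch allowed (0.554%, 0.253% and 0.262%). The matches do not overlap, and a match describes letters, not binding.

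In saline bladders the uroplakins were abundant, and their order per transcript length was the same on both diets. On the vitamin A diet, Upk1a averaged 1787 ± 39.8 FPKM (fragments scaled by exon length and library size; SD, n = 3 as for all groups here), followed by Upk3a at 1455 ± 35.4, Upk2 at 1158 ± 52.9, Upk1b at 862 ± 65.6 and Upk3b at 215 ± 19.1 FPKM. On the normal diet the means were 1770.2 ± 56.4 FPKM for Upk1a, 1449 ± 41.2 for Upk3a, 1334 ± 44.8 for Upk2, 879.7 ± 69.3 for Upk1b and 212 ± 5.03 for Upk3b. No neighbours in that order overlapped between libraries on either diet. Together the 5 genes took 0.660 to 0.731% of named counts on the vitamin A diet and 0.699 to 0.749% on the normal diet.

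After CP the order per length became less distinct. At 1 day on the vitamin A diet, Upk1a (753 ± 179 FPKM), Upk1b (528 ± 111), Upk3a (521 ± 199.8) and Upk2 (436 ± 103) each overlapped the next in order, with Upk3b apart below at 140.4 ± 25.4 FPKM. At 1 day on the normal diet, Upk1a (1164 ± 192 FPKM), Upk3a (985 ± 248), Upk1b (747 ± 46.0) and Upk2 (725 ± 94.8) likewise each overlapped the next, with Upk3b apart at 153 ± 8.89 FPKM. At 3 days on the vitamin A diet, Upk3a had the highest mean (1110.4 ± 347 FPKM) beside Upk1a (1071 ± 268), then Upk1b (729.7 ± 154.8), Upk2 (658 ± 154) and Upk3b (138 ± 34.8), and all but Upk3b overlapped. At 3 days on the normal diet, the means were 1047 ± 88.9 FPKM for Upk1a, 968 ± 66.6 for Upk3a, 787 ± 107 for Upk1b, 692 ± 48.3 for Upk2 and 131 ± 11.4 for Upk3b, where Upk1a overlapped Upk3a and Upk1b overlapped Upk2. Upk1b therefore stood above Upk2 by mean in all 4 CP groups and below it in both saline groups, though the ranges of the pair overlapped in each CP group.

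**Figure D1:**
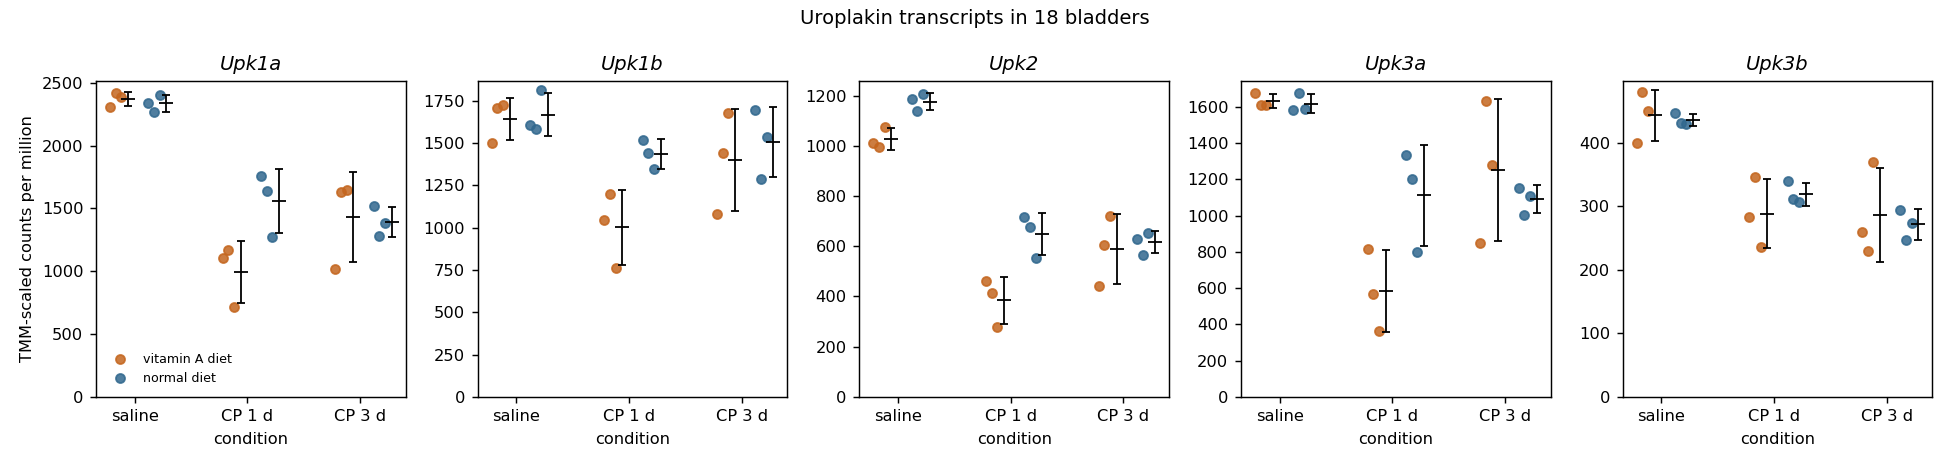
Level of each uroplakin (TMM-scaled CPM, y axis from 0) in every library by condition, with the vitamin A diet left of the normal diet. Points are single bladders, and bars are mean ± SD of 3. Saline points cluster tightly, and at 1 day after CP the vitamin A points lie below the normal-diet points for Upk1a, Upk1b and Upk2 without overlap. None of these diet differences was called by edgeR.

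At 1 day after CP all 5 uroplakins were lower than after saline. On each diet, every CP library lay below every library of that diet's saline group. The share of all genes that separate in this way was not computed, here or for the uroplakin levels below. Such separation is therefore a description and not a test. Averaged over the diets, edgeR called all 5 lower: Upk2 fell to 0.454 of its saline level, Upk3a to 0.495, Upk1a to 0.529, Upk3b to 0.690 and Upk1b to 0.724. Over all genes, 14.0% were called lower and 15.4% higher in that comparison. On the vitamin A diet all 5 were called lower (9.05% of all genes), and on the normal diet 1 of 5, Upk2 (4.49% of all genes). The median log2 change of the 5 was -0.92 over the diets, against -0.00409 for all genes tested.

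The first pair, Upk1a and its partner Upk2, showed these values. Upk1a, the FimH-binding tetraspanin, had 1101, 1169.9 and 714 CPM at 1 day after CP on the vitamin A diet, against 2309, 2420 and 2385 CPM after saline. On the normal diet it had 1758, 1640.2 and 1269 CPM after CP, against 2342, 2267 and 2399 CPM after saline. The highest CP library lay below the lowest saline library on each diet, and the change was -1.25 ± 0.21 (adjusted p = 0.000283) on the vitamin A diet and -0.59 ± 0.20 (adjusted p = 0.0711, edgeR) on the normal diet. Upk2, the single-span partner of uroplakin Ia, had 461, 414 and 279 CPM after CP on the vitamin A diet, against 1009.65, 996 and 1075 CPM after saline. In normal-diet bladders it had 715, 675 and 554 CPM after CP, against 1186, 1137 and 1205 CPM after saline. Again no libraries overlapped, and Upk2 passed on both diets, at -1.42 ± 0.19 (adjusted p = 3.57e-05) with vitamin A and -0.86 ± 0.19 (adjusted p = 0.00542, edgeR) without.

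The second pair, Upk1b and its partner Upk3a, passed on the vitamin A diet but not on the normal diet. Upk1b, the other tetraspanin, had 1048, 1197 and 762 CPM at 1 day after CP on the vitamin A diet, against 1499.6, 1706 and 1725 CPM after saline. Under the normal diet it had 1518, 1444 and 1346 CPM after CP, against 1605.5, 1585 and 1815 CPM after saline. Both sets stayed apart, but by a narrow margin on the normal diet, and the changes were -0.71 ± 0.19 (adjusted p = 0.0111) and -0.22 ± 0.19 (adjusted p = 0.503, edgeR). Upk3a, the single-span partner whose cytoplasmic tail is the longest of the classical uroplakins, had 815, 569 and 362 CPM after CP on the vitamin A diet, against 1677, 1613 and 1609 CPM after saline. With the normal diet it had 1337, 1203 and 800.4 CPM after CP, against 1586, 1677 and 1587.5 CPM after saline. Its replicates at 1 day after CP were the most scattered of the 5 genes, with a coefficient of variation of 39.0% on the vitamin A diet and 25.1% on the normal diet, and its change was -1.49 ± 0.26 (adjusted p = 0.000491) and -0.54 ± 0.26 (adjusted p = 0.191, edgeR).

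Upk3b, the alternative partner of uroplakin Ib that mesothelium also makes, was the least abundant. It had 283, 346 and 237 CPM at 1 day after CP on the vitamin A diet, against 399.6, 479.7 and 451 CPM after saline. In normal-diet bladders it had 339.6, 312 and 306 CPM after CP, against 447, 431 and 430.2 CPM after saline. The libraries did not overlap on either diet, and the change was -0.62 ± 0.17 (adjusted p = 0.0124) with vitamin A and -0.45 ± 0.16 (adjusted p = 0.0853, edgeR) without.

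Some of these calls rested on single libraries or on the fit. Without vitamin A replicate 3 at 1 day, the lowest library of its group for all 5 genes, Upk1b (adjusted p = 0.0622) and Upk3b (0.0704) no longer passed on the vitamin A diet, and Upk3b also missed the threshold without saline vitamin A replicate 2 (0.0587). On the normal diet, a fit of only the 2 groups compared called 4 of the 5 genes, leaving out Upk1b, and DESeq2 called 3, adding Upk1a and Upk3b to Upk2. Calls over all genes grew too in that comparison, to 4463 in the fit of 2 groups and 3028 with DESeq2, against 2271 in the fit of all libraries. The fall on the vitamin A diet was not shown to differ from that on the normal diet: the interaction of diet and CP called none of the 5 (0% of all genes), with log2 differences from -0.17 for Upk3b to -0.95 for Upk3a. Unadjusted p was under 0.05 for 3 of the 5 in that interaction (7.79% of all genes), and DESeq2 called none of the 5 either.

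**Figure D2:**
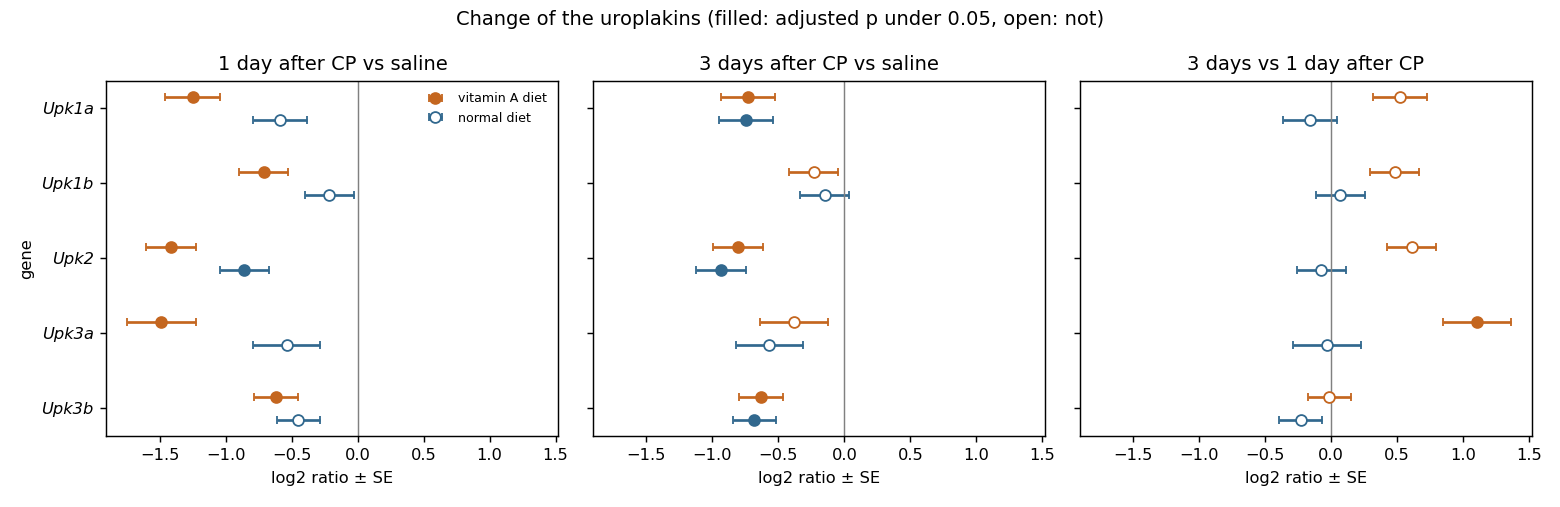
Log2 ratio ± SE (edgeR, x axis) of each uroplakin at 1 day after CP over saline, 3 days after CP over saline and 3 days over 1 day after CP, with the vitamin A diet above the normal diet. Filled points passed the adjusted p threshold of 0.05. All 5 points are filled for the vitamin A diet at 1 day, 3 per diet at 3 days, and only Upk3a with vitamin A between 3 days and 1 day.

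At 3 days after CP, Upk1a, Upk2 and Upk3b were still lower than after saline, on each diet and averaged over diets, whereas Upk1b and Upk3a were not called in any of these comparisons. Averaged over diets, Upk2 fell to 0.547 of the saline level (log2 -0.87 ± 0.13, adjusted p = 0.000116), Upk1a to 0.600 (-0.74 ± 0.14, 0.00131) and Upk3b to 0.634 (-0.66 ± 0.12, 0.000543). Upk3a stood at 0.719 of saline (-0.48 ± 0.18, adjusted p = 0.0746) and Upk1b at 0.877 (-0.19 ± 0.13, 0.346). Genes called lower made up 7.89% of all genes over the diets (11.3% were called higher), 1.67% on the vitamin A diet and 3.30% on the normal diet. The median log2 change of the 5 was -0.66 over the diets, against 0.000909 for all genes.

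In the first pair, Upk1a had 1014, 1629 and 1647 CPM at 3 days after CP on the vitamin A diet, against the saline values given above, and 1518, 1277 and 1387 CPM on the normal diet. Upk2 had 440.4, 603 and 719 CPM on the vitamin A diet and 629.8, 566 and 651 CPM on the normal diet. Every library of both genes lay below the saline libraries of its diet. Upk1a changed by -0.73 ± 0.20 (adjusted p = 0.0404) on the vitamin A diet and by -0.74 ± 0.20 (0.0261) on the normal diet, and Upk2 by -0.81 ± 0.19 (0.0125) and -0.93 ± 0.19 (0.00319, edgeR). The Upk1a call on each diet was lost without most single libraries, at adjusted p from 0.0892 to 0.1225 without any of the 3 saline vitamin A libraries or CP vitamin A replicate 1, and from 0.0614 to 0.0923 without any 1 of the 6 normal-diet libraries. The call of Upk2 held without each of them.

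In the second pair, Upk1b had 1081, 1441 and 1681 CPM at 3 days after CP on the vitamin A diet and 1698, 1286 and 1535 CPM on the normal diet. Both sets overlapped the saline libraries of their diet, and the changes were -0.23 ± 0.19 (adjusted p = 0.553) and -0.15 ± 0.19 (0.696, edgeR). Upk3a had 849.5, 1631 and 1280.3 CPM on the vitamin A diet and 1155, 1005 and 1109 CPM on the normal diet. Of the vitamin A libraries, replicate 2 lay within the saline range, and all 3 normal-diet libraries lay below theirs, with changes of -0.38 ± 0.26 (adjusted p = 0.456) and -0.57 ± 0.26 (0.187, edgeR). Without that library Upk3a passed over the diets (adjusted p = 0.0204), as it did by DESeq2 (0.0295) and in a fit of only the groups compared (0.0294), which also called it on the normal diet alone (0.00394).

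Upk3b had 260.0, 229 and 369 CPM at 3 days after CP on the vitamin A diet and 295, 247 and 274 CPM on the normal diet. All 6 libraries lay below the saline libraries, and the changes were -0.63 ± 0.17 (adjusted p = 0.0268) and -0.68 ± 0.17 (0.0125, edgeR). The Upk3b call on the vitamin A diet was lost without saline replicate 2 (adjusted p = 0.123), saline replicate 3 (0.0663), CP replicate 1 (0.0642) or CP replicate 2 (0.0640), and that on the normal diet without CP replicate 2 (0.0569). A fit of only the saline and 3-day vitamin A groups called none of the 5 genes, with adjusted p of 0.201 for Upk1a, 0.115 for Upk2 and 0.202 for Upk3b. Their log2 changes in that fit were -0.73, -0.80 and -0.63, and it called 499 genes in all, against 1156 in the fit of all libraries.

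Between 1 and 3 days after CP, Upk3a rose on the vitamin A diet to 2.15 times its 1-day level (log2 1.11 ± 0.26, adjusted p = 0.0214, edgeR), against a background of 2.55% of genes called higher. Its 3-day libraries (849.5, 1631 and 1280.3 CPM) all exceeded the 1-day ones (815, 569 and 362 CPM), the closest by a narrow margin. Upk2 (0.61 ± 0.19, adjusted p = 0.0697), Upk1a (0.52 ± 0.20, 0.160) and Upk1b (0.48 ± 0.19, 0.154) did not pass, and Upk3b stood at -0.01 ± 0.16 (0.981). Upk2 did pass by DESeq2 (adjusted p = 0.018), which called 1664 genes in all. In edgeR it passed without the filter on low counts (0.0475) and without vitamin A replicate 1 at 1 day (0.0329) or at 3 days (0.0263). Upk1a passed without vitamin A replicate 1 at 3 days (adjusted p = 0.0494, edgeR). On the normal diet none of the 5 was called, none had an unadjusted p under 0.05, DESeq2 called none, and log2 changes ran from -0.23 for Upk3b, whose 3-day libraries lay wholly below the 1-day ones, to 0.07 for Upk1b. Over all genes 1.44% were called there, and 11.3% had an unadjusted p under 0.05. Averaged over the diets edgeR called none of the 5 (6.81% of all genes), with an unadjusted p under 0.05 for 2, Upk1b and Upk3a (20.1% of all genes), and DESeq2 called Upk3a (adjusted p = 0.0289). The Upk3a call was lost without vitamin A replicate 2 (adjusted p = 0.0674) or 3 (0.0957) at 1 day, without replicate 2 at 3 days (0.0629), and in a fit of only the groups compared (0.2998). In that fit its log2 change was 1.10, and 17 genes were called in all, against 819 in the fit of all libraries. The interaction of diet and time called none of the 5 (0% of all genes), with 1.14 ± 0.36 for Upk3a (adjusted p = 0.347), an unadjusted p under 0.05 for 3 of the 5 (8.96% of all genes) and no call by DESeq2.

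At 1 day after CP, the vitamin A bladders had lower means than the normal-diet bladders for all 5 genes, and edgeR called none of them at this number of mice. Upk3a stood at 0.523 of the normal-diet level (log2 -0.94 ± 0.26, adjusted p = 0.122), Upk2 at 0.594 (-0.75 ± 0.19, 0.0888), Upk1a at 0.640 (-0.64 ± 0.20, 0.183), Upk1b at 0.698 (-0.52 ± 0.19, 0.260) and Upk3b at 0.904 (-0.15 ± 0.16, 0.821). The vitamin A libraries lay wholly below the normal-diet libraries for Upk1a, Upk1b and Upk2, and overlapped them for Upk3a and Upk3b. The share of all genes that lay apart in this way was not computed, so this is a description and not a test. Summed over the 5 genes, they held 3708, 3696 and 2354 CPM on the vitamin A diet, against 5668, 5273 and 4275 CPM on the normal diet. Unadjusted p was under 0.05 for 4 of the 5, all but Upk3b, against 11.1% of all genes, and 0.466% of all genes passed after adjustment. Of the markers of other cell types at this time, differences between the diets in mesothelial genes, whose tissue makes Upk3b and Upk1b too, were below 0 in 11 of 11 (median log2 -0.55) and macrophage genes in 8 of 9 (-0.28), and none was below 0 of 8 adipocyte genes (2.14) or of 6 tested neutrophil genes (1.25). Below 0 were also 1 of 12 basal urothelial genes (median 0.37), 7 of 10 fibroblast genes (-0.27) and 5 of 10 smooth muscle genes (0.01). So were 4 of 12 general epithelial genes (0.08), 7 of 12 other umbrella cell genes (-0.22) and 14 of 16 genes of uroplakin vesicle traffic (-0.13). Of these markers only Cd14, in the macrophage list, passed (1.03, adjusted p = 0.0352, edgeR). Their part in the uroplakin difference was not tested.

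The diet result depended on the tool. DESeq2 called 3 of the 5 genes in these data, Upk2 (adjusted p = 0.00643), Upk3a (0.0166) and Upk1a (0.0451), among 480 genes in all, against 90 by edgeR. The authors' deposited table for this comparison, which lists genes with an unadjusted p under 0.05, held Upk2 at -0.76 (adjusted p = 0.00369), Upk3a at -0.94 (0.00693), Upk1a at -0.65 (0.0279) and Upk1b at -0.52 (0.0584), with signs turned here to vitamin A over normal diet, and did not list Upk3b. In edgeR, leaving out vitamin A replicate 1 brought Upk2 (adjusted p = 0.0326) and Upk3a (0.0206) past the threshold, and fitting without the filter on low counts brought Upk2 past it (0.0272). Those settings called 305 and 129 genes in all. Without vitamin A replicate 3 instead, Upk2 stood at -0.57 (adjusted p = 0.333) and Upk3a at -0.69 (0.418), against -0.91 and -1.26 without replicate 1.

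After saline and at 3 days after CP no diet difference in uroplakins was called by edgeR or DESeq2, and no member had an unadjusted p under 0.05 (3.78% and 3.76% of all genes did; 0.0104% and 0.00518% passed after adjustment). After saline, Upk2 was at 1009.65, 996 and 1075 CPM on the vitamin A diet, against 1186, 1137 and 1205 CPM on the normal diet, without overlap (log2 -0.20 ± 0.19, adjusted p = 1, edgeR). The authors' deposited table for saline lists Upk2 alone of the 5, at -0.20 with an adjusted p of 0.292. The other 4 genes overlapped between diets after saline, within log2 changes of -0.02 to 0.02. At 3 days all 5 overlapped between diets, within -0.10 to 0.20.

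Bladders within the injured groups mostly differed more than those within the saline groups, which was not tested. The coefficient of variation over 3 bladders ran from 2.35 to 9.15% for the 5 genes after saline on the vitamin A diet and from 2.21 to 7.61% on the normal diet. At 1 day after CP it ran from 19.0 to 39.0% and from 5.60 to 25.1%, and at 3 days from 21.6 to 31.2% and from 7.06 to 13.8%, with the vitamin A diet given first each time. Within groups the genes shared their low libraries: the library labelled replicate 3 was the lowest for all 5 genes in both groups at 1 day after CP, replicate 2 for all 5 at 3 days on the normal diet, and replicate 1 for 4 of 5 at 3 days on the vitamin A diet. The exception there was Upk3b, lowest in replicate 2, the library with the highest Upk3a value.

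Ratios of 2 uroplakins within a library do not depend on how libraries are scaled, and they were compared per length. The 4 ratios were tested in 4 contrasts by exact 2-sided permutation tests stratified by diet or condition, with p adjusted over the 16 tests. The balance of the tetraspanins changed after CP: Upk1b rose relative to Upk1a. The FPKM ratio Upk1b/Upk1a was 0.662, 0.712 and 0.742 at 1 day after CP on the vitamin A diet, against 0.452, 0.491 and 0.503 after saline. Under the normal diet it was 0.601, 0.612 and 0.738 after CP, against 0.477, 0.486 and 0.526 after saline. At 3 days it was 0.741, 0.616 and 0.710 on the vitamin A diet and 0.778, 0.701 and 0.770 on the normal diet. No CP library overlapped a saline library, at either time or on either diet. Averaged over diets the ratio was 1.38 times the saline level at 1 day (log2 0.47, exact p = 0.005, the smallest these permutations can give, adjusted p = 0.0267) and 1.47 times at 3 days (log2 0.55, exact p = 0.005, adjusted p = 0.0267). The 1-day result held without each library in turn, and the 3-day result missed the threshold without normal-diet replicate 2 (adjusted p = 0.057) or 3 (0.060) at 3 days. The log2 differences were then 0.58 and 0.54, against 0.55 with all libraries. Leaving out a library lowers the number of permutations, and p was then adjusted over only the tests that use its group. A ratio can therefore miss the threshold with its difference unchanged.

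The partners also changed relative to their own tetraspanins. Upk2/Upk1a was 0.626, 0.530 and 0.584 at 1 day after CP on the vitamin A diet, against 0.654, 0.616 and 0.675 after saline, and 0.608, 0.616 and 0.653 on the normal diet, against 0.758, 0.751 and 0.752 after saline. The groups overlapped on the vitamin A diet and not on the normal diet, and over both the ratio was 0.861 of the saline level (log2 -0.22, exact p = 0.01, adjusted p = 0.0267). This ratio was also lower on the vitamin A diet than on the normal diet over the 3 conditions, at 0.906 of it (log2 -0.14, exact p = 0.00575, adjusted p = 0.0267), and it was wholly below only after saline. The diet result was lost without normal-diet replicate 2 (adjusted p = 0.057) or 3 (0.0825) at 3 days. The log2 differences were then -0.14 and -0.13, with fewer permutations.

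Upk3a/Upk1b was 1.32, 0.808 and 0.807 at 1 day after CP on the vitamin A diet, against 1.90, 1.61 and 1.59 after saline. With the normal diet it was 1.497, 1.42 and 1.01 after CP, against 1.68, 1.80 and 1.49 after saline. Over both diets the ratio was 0.663 of the saline level (log2 -0.59, exact p = 0.01, adjusted p = 0.0267), and it missed the threshold without saline vitamin A replicate 1 (adjusted p = 0.072), 2 (0.050) or 3 (0.060) or saline normal-diet replicate 2 (0.060). The log2 differences were then -0.55, -0.61, -0.62 and -0.56, with fewer permutations. At 3 days it was 1.34, 1.92 and 1.29 on the vitamin A diet and 1.16, 1.33 and 1.23 on the normal diet, and 0.813 of saline over both (adjusted p = 0.08, exact permutation test).

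Upk3b/Upk3a, the alternative over the classical partner of uroplakin Ib, fell between 1 and 3 days after CP to 0.617 of its 1-day level (log2 -0.70, exact p = 0.01, adjusted p = 0.0267). It was 0.166, 0.0763 and 0.157 at 3 days on the vitamin A diet, against 0.189, 0.330 and 0.355 at 1 day, and 0.139, 0.133 and 0.134 at 3 days on the normal diet, against 0.138, 0.141 and 0.208 at 1 day. Saline libraries lay at 0.129 to 0.162 and 0.140 to 0.153. The groups were apart on the vitamin A diet and overlapped on the normal diet, and the call was lost without any 1 of the 6 libraries at 3 days (adjusted p 0.09 to 0.12). The log2 difference was then -0.52 without vitamin A replicate 2 and from -0.80 to -0.69 without any other, with fewer permutations each time. The other 10 tests did not pass, with adjusted p from 0.0571 to 0.784.

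**Figure D3:**
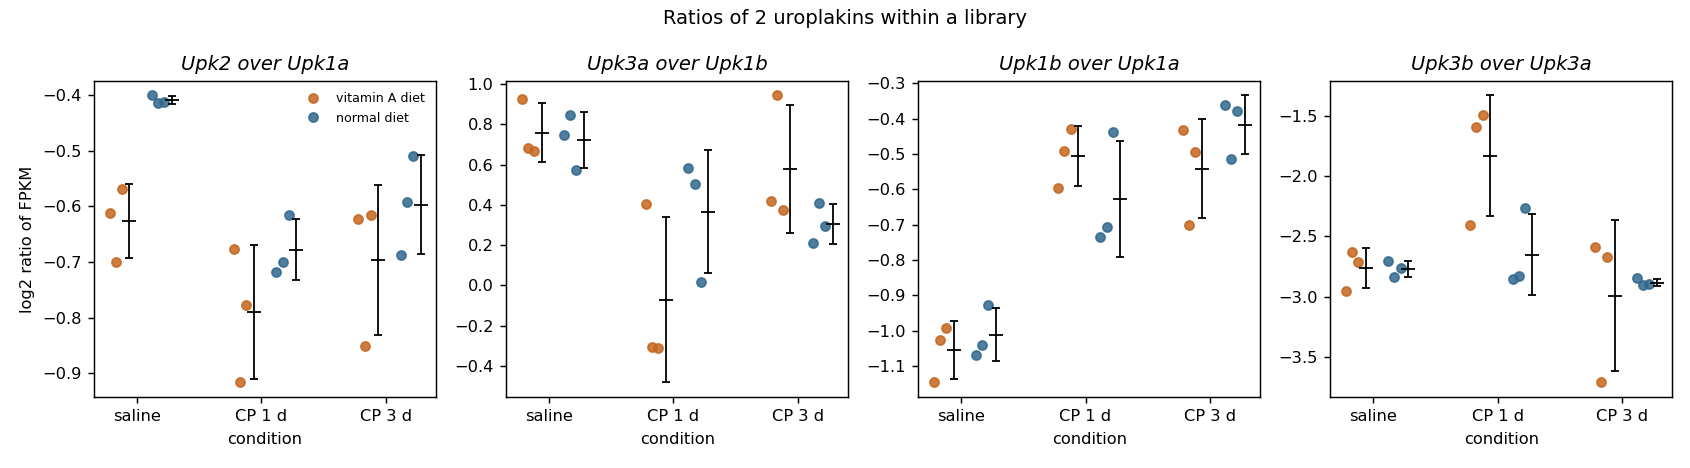
Log2 ratio of the FPKM of 2 uroplakins within each library (y axis) by condition, with the vitamin A diet left of the normal diet. Points are bladders, and bars are mean ± SD of 3. The Upk1b over Upk1a points of all 12 CP bladders lie above those of the 6 saline bladders.

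General epithelial genes were not called lower after CP. For the list counts here and below, 15.4% of all genes were called higher and 14.0% lower at 1 day over both diets. At 3 days 11.3% were called higher and 7.89% lower. Of 12 epithelial genes (adhesion, simple keratin, protease and splicing factor genes), 7 rose at 1 day after CP over both diets and none fell, with a median log2 change of 0.51, and the list summed to 7159 to 13488 CPM at 1 day on the vitamin A diet and 8331.5 to 9971 CPM on the normal diet, against 5669 to 5829.5 and 5814 to 6077 CPM after saline. Relative to the mean log2 CPM of these genes in the same library, every uroplakin was lower after CP than after saline in every library, at both times and on both diets. The differences at 1 day over both diets were -1.58 for Upk2, -1.49 for Upk3a, -1.36 for Upk1a, -0.96 for Upk3b and -0.90 for Upk1b, with within-group SDs of 0.12 to 0.38. At 3 days they were -1.08 for Upk2, -0.95 for Upk1a, -0.87 for Upk3b, -0.70 for Upk3a and -0.40 for Upk1b, with SDs of 0.08 to 0.19. These are descriptions without a test, and part of each difference is the rise of the epithelial genes themselves. The share of all genes that separate from saline relative to this list was not computed. In CPM alone, Upk1b at 3 days overlapped saline on both diets, with a log2 change of -0.19 over the diets that was not called. Upk3a at 3 days overlapped saline in CPM on the vitamin A diet.

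**Figure D4:**
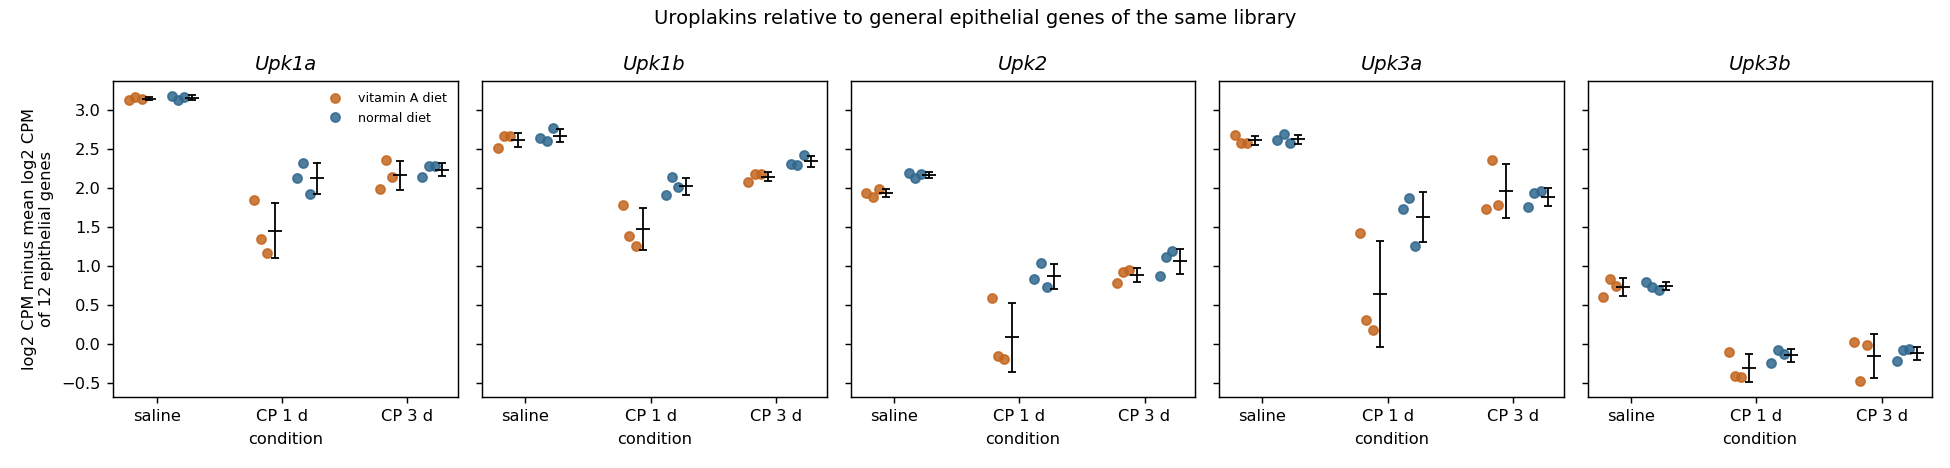
Log2 CPM of each uroplakin minus the mean log2 CPM of 12 epithelial genes of the same library (y axis) by condition, with the vitamin A diet left of the normal diet. Points are bladders, and bars are mean ± SD of 3. CP points lie below saline points in all 5 panels, and Upk1b lies nearest to saline at 3 days.

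Other umbrella cell genes split between higher and lower. Of 12 such genes, 3 fell and 5 rose at 1 day after CP over both diets, with a median log2 change of 0.03. Those that fell were Cldn8, a tight junction claudin (-1.78, adjusted p = 3.61e-07), Snx31, a sorting nexin that traffics uroplakins to lysosomes (-1.21, 1.35e-05), and Krt20, the keratin of umbrella cells (-0.85, 8.36e-05, edgeR). The rises included Upk3bl, the uroplakin 3B-like gene (2.41, adjusted p = 0.000311), from very low levels, Trpv4, an osmotically and mechanically gated channel (0.44, 0.00168), and Cldn4, another claudin (0.41, 0.0102). At 3 days 3 were higher and 4 lower than after saline, with Cldn8 at -1.21 (adjusted p = 3.83e-05) and Krt20 at -0.76 (0.000388, edgeR) among the lower.

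Basal urothelial markers went the other way. Of 12, 10 rose and none fell at 1 day (median 1.31), led by Krt14 (log2 4.71, adjusted p = 8.49e-06) and the hemidesmosome collagen Col17a1 (2.61, 3.36e-07), with Krt5 at 1.52 (1.97e-07, edgeR). At 3 days 9 rose and 1, Dst, fell (-0.56, adjusted p = 0.0381, edgeR). The list summed to 5411 to 7537 CPM at 1 day after CP on the vitamin A diet and 4953 to 6057 CPM on the normal diet, against 2106.5 to 2324 and 2593 to 2972 CPM after saline. Its part in the uroplakin result was not tested.

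Genes that carry uroplakins to and from the apical membrane split. Of 16, 4 rose and 4 fell at 1 day over both diets (median -0.09). Mal, the lipid raft protein needed for fusion of uroplakin vesicles (1.05, adjusted p = 6.75e-05), and the Rab GTPase gene Rab27a (0.78, 6.51e-06) rose. Its paralogue Rab27b, which drives uroplakin vesicle delivery to the surface (-0.62, adjusted p = 0.00272), the Rab27 effector Sytl2 (-0.75, 0.00164) and Snx31, counted in both lists, fell (edgeR). At 3 days 2 of the 16 rose, Mal (0.68, adjusted p = 0.00489) and Rab27a (0.32, 0.0231), and 1 fell, Snx31 (-0.65, 0.00646, edgeR). These 3-day counts were near the shares of all genes (11.3% higher, 7.89% lower).

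Of 18 transcription factors of urothelial differentiation, 4 fell and 1 rose at 1 day over both diets (median -0.05). Elf5 (-0.94, adjusted p = 0.000571), Gata3 (-0.60, 0.00195), Tbx3 (-0.52, 0.0116) and Klf4 (-0.49, 0.00896) were lower, and Elf3, an epithelial ETS factor, was higher (0.96, 0.000187, edgeR). Pparg and Rxra, the nuclear receptor pair known in the mouse and human urothelium for driving differentiation, stood at -0.23 (adjusted p = 0.137) and -0.29 (0.0798), and the retinoic acid receptor gene Rarb at 0.30 (0.111, edgeR). At 3 days 2 rose and 2 fell, with Tbx3 (-0.48, adjusted p = 0.0251) and Gata3 (-0.40, 0.0358) still lower, Elf3 (0.74, 0.00273) still higher and Ets2 (0.31, 0.00958, edgeR) the other riser. These 3-day counts too were near the shares of all genes (11.3% higher, 7.89% lower). Between the diets at 1 day after CP, no gene of the umbrella, basal, traffic or transcription factor lists passed. After saline, Elf5 was higher on the vitamin A diet (1.88, adjusted p = 0.00602, edgeR), the only gene of these 4 lists called between the diets in that condition, and at 3 days none was.

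Mesothelium makes Upk3b and Upk1b too. Of 11 mesothelial markers, 4 fell and 1 rose, Aldh1a2, at 1 day over both diets (median -0.47), and 3 fell and 1 rose at 3 days (median -0.74). The list summed to 70.4 to 194 CPM at 1 day after CP on the vitamin A diet and 146 to 189 CPM on the normal diet, to 99.8 to 148 and 98.0 to 145 CPM at 3 days, and to 136 to 204 and 155 to 216 CPM after saline, and no marker was at 0 throughout a group. The defining marker Msln (-0.32, adjusted p = 0.459) was not called at 1 day (edgeR). Over both diets, log2 changes were below 0 for 9 of the 11 markers at 1 day and for 10 of the 11 at 3 days. The part of mesothelium in the Upk3b and Upk1b results was not tested.

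Some markers of other tissues were also called after CP. All 10 fibroblast genes fell at 1 day (median -1.78), and 4 of 10 smooth muscle genes fell (median -0.52), while 5 of the 6 neutrophil genes that passed the filter (8 listed) rose and 1 fell, and 3 of 9 macrophage genes rose and 2 fell. Of 8 adipocyte genes 1 rose, near the share of all genes called higher (15.4%). At 3 days, 8 of 9 macrophage genes were higher than after saline, 4 of 10 smooth muscle genes were lower, 3 fibroblast genes were higher and 3 lower, and 1 neutrophil and 1 adipocyte gene were lower. In lists this short, 1 gene is near the share of all genes called lower at 3 days (7.89%). Between 1 and 3 days, 10 of 10 fibroblast genes rose over the diets, and on the vitamin A diet, where Upk3a was called, 9 of 10 did (median 1.80), with 5 of 9 macrophage genes higher and 3 of 12 basal and 1 of 6 neutrophil genes lower. Over all genes, 6.81% were called in either direction between these times over the diets. On the vitamin A diet 819 of 19323 genes were called in either direction, 492 of them higher (2.55%). Their part in the uroplakin results was not tested.

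**Figure D5:**
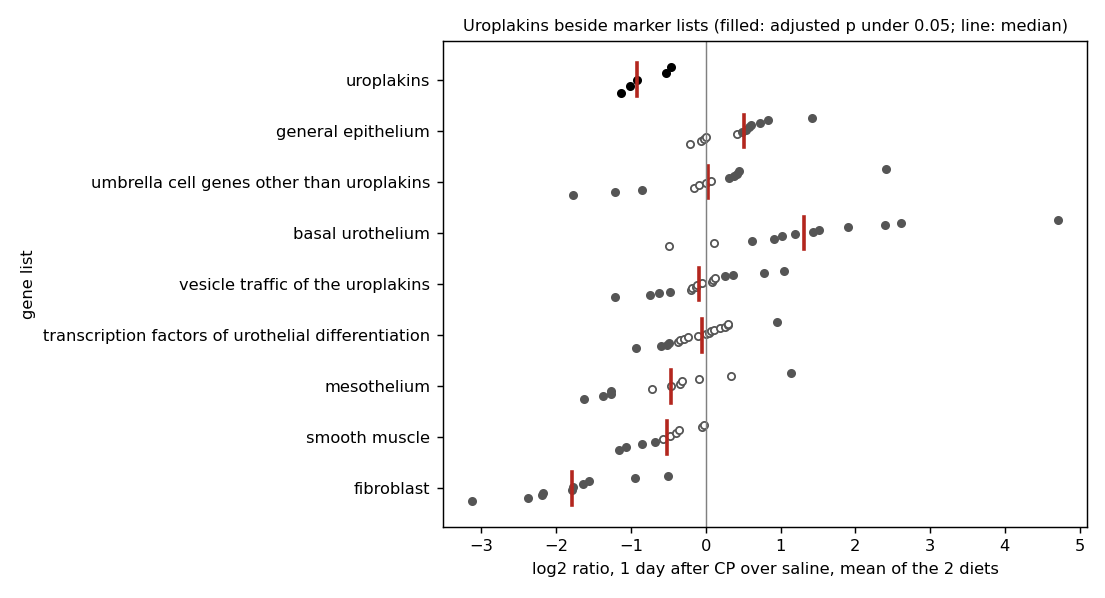
Log2 ratio at 1 day after CP over saline, mean of both diets (x axis), of the uroplakins and of 8 marker lists (rows). Each point is a gene, filled where the adjusted p was under 0.05, and the red line is the list's median. The 5 uroplakins are all filled and below 0, and 10 of 12 basal genes are filled and above it.

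Likeness across the 18 libraries was measured as the root mean square difference between 2 genes' log2 CPM after each was centred on its own mean. Upk1a and Upk2 were alike: Upk2 was the nearest of all tested genes to Upk1a (0.14), and Upk1a the 3rd nearest to Upk2. Upk3a was nearer to Upk1a (0.24) and Upk2 (0.25) than to its own partner Upk1b (0.36), and Upk3a and Upk3b were the least alike pair (0.48). The nearest genes to Upk1a after Upk2 were AA986860 and Sptlc3 (0.16 each), and those to Upk2 were Sptlc3 (0.11) and Adssl1 (0.12). Nearest to Upk1b were Cds1 (0.10), Pank1 (0.14) and Rab33b (0.15), nearest to Upk3a were Iah1 (0.20), Cspg5 (0.22) and Gm6665 (0.23), and nearest to Upk3b were Pdxk, Tmem184a (0.13 each) and Endod1 (0.14). For scale, the members' own root mean square deviation from their means ran from 0.31 for Upk1b to 0.60 for Upk3a, and a gene that moves little lies near many others. These are descriptions over libraries that share the same groups.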

How the data were processed

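Whole-bladder RNA was sequenced in 18 libraries. Per the submitters' processing notes, HISAT2 2.0.5, featureCounts 1.5.0-p3, DESeq2 1.20.0 and GRCm39 were used. The sources used here do not give the strand setting or the treatment of reads mapping to several places. The authors deposited read counts per gene (not normalized), gene lengths and FPKM. The deposited FPKM equal count per kilobase divided by a library total within 0.946 to 1.06 of the summed counts. The authors also deposited tables of diet comparisons with log2 fold changes and p-values, listing unadjusted p under 0.05.

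Here, 14417 unnamed features (0.474 to 0.810% of counts) were left out. Of 46333 named genes, 19323 passed filterByExpr. edgeR 4.0.16 (TMM, 1 mean per group, robust quasi-likelihood fit, R 4.3.3) gave 15 contrasts, with Benjamini-Hochberg adjustment over all tested genes. The edgeR p-values and standard errors use 1 spread per gene estimated over all 6 groups of 3 bladders, not only the groups compared. Ratios used exact permutation tests. The fit and the ratio test were run on simulated data. The simulated ratio shift was larger than any ratio difference reported here. That run therefore checks the code and not the power to find such differences. Alternatives were RLE scaling, no count filter, unnamed features kept, a replicate block, fits of only the compared groups, DESeq2 1.42.0, limma 3.58.1 on log2(FPKM + 0.1) and each library left out. Replicate pairs of a group differed by more than counting noise. Named genes were the 5 uroplakins, up to 3 called genes of largest change per list with others added after their values were seen, and the 3 nearest genes of each uroplakin. Members and lists were chosen with earlier results of these data known.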

Additional observations from a re-analysis of the deposited data

How the results depend on the processing

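No called result changed direction in the alternatives run. Counts of uroplakins called that moved were as follows. Fits of only the groups compared gave 4 for 1 day after CP against saline on the normal diet, 0 for 3 days against 1 day on the vitamin A diet and 0 for 3 days against saline on the vitamin A diet, where the shared fit gave 1, 1 and 3. Over all genes the same fits called 4463, 17 and 499, against 2271, 819 and 1156 in the shared fit, and Upk3a kept a log2 change of 1.10 (shared fit 1.11) between 3 days and 1 day. DESeq2 gave 3, 2 and, for vitamin A against normal diet at 1 day, 3 (edgeR 0), and 1 for 3 days against 1 day over the diets (edgeR 0). Over all genes DESeq2 called 3028, 1664, 480 and 2004 in these 4 comparisons, against 2271, 819, 90 and 1316 by edgeR. Without the filter on low counts, 2 were called between 3 days and 1 day on the vitamin A diet and 1 for vitamin A against normal diet at 1 day. Over all genes 775 and 129 were then called, against 819 and 90 with the filter. Without both vitamin A replicate 3 at 1 day and vitamin A replicate 2 at 3 days, chosen after seeing the data, 0 were called between 3 days and 1 day on the vitamin A diet. The cause of these moves was not tested.

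With each library left out in turn, the counts ran from 3 to 5 for 1 day against saline on the vitamin A diet, from 0 to 3 for 3 days against 1 day and from 1 to 3 for 3 days against saline on that diet, and from 1 to 2 for 3 days against saline on the normal diet. They ran from 0 to 2 for the diets at 1 day after CP and from 0 to 1 for 3 days against 1 day over the diets. Calls over all genes moved too. Without vitamin A replicate 1 at 1 day they were 1293 between 3 days and 1 day on that diet, against 819 with all libraries. They were 305 between the diets at 1 day (90 with all libraries) and 1739 between 3 days and 1 day over the diets (1316). The 4 ratios, log2, ran in the same way from -0.24 to -0.18 (Upk2/Upk1a, 1 day against saline), -0.15 to -0.0900 (3 days against saline) and -0.16 to -0.12 (diet), from -0.71 to -0.51 (Upk3a/Upk1b, 1 day) and -0.39 to -0.25 (3 days against saline), from 0.42 to 0.49 (Upk1b/Upk1a, 1 day) and 0.53 to 0.59 (3 days), and from 0.43 to 0.67 (Upk3b/Upk3a, 1 day against saline) and -0.84 to -0.52 (3 days against 1 day). Leaving out a library also lowers the number of permutations, and p was then adjusted over only the tests that use its group.

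Replicate numbers did not pair the samples: same-numbered libraries correlated from -0.123 to 0.197 and 3 of 45 pairs exceeded 0.1. With the replicate block no uroplakin count moved by over 1.5 times, though Upk1a at 3 days against saline on the vitamin A diet missed the threshold (adjusted p = 0.0587). The ratio tests with the block keep the values -0.22, -0.14, -0.59, 0.47, 0.55 and -0.70 and all miss the threshold, with adjusted p = 0.0714, and 0.111 for the last, in exact permutation tests whose smallest p for the contrasts of injury is 0.03125. Without keratins in the epithelial list, the differences at 1 day were -0.70 for Upk1b and -0.76 for Upk3b. Depth was 4763 reads or more per uroplakin and library, and the 3 bladders per group set the precision.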

Other observations

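Upk3bl, the uroplakin 3B-like gene, was scarce and ran opposite to the 5 uroplakins. It averaged 5.50 ± 1.34 CPM at 1 day after CP on the vitamin A diet and 3.44 ± 0.625 CPM on the normal diet, against 0.915 ± 1.13 and 0.737 ± 0.261 CPM after saline (SD, n = 3). At 3 days it averaged 2.06 ± 0.338 CPM on the vitamin A diet and 4.66 ± 1.49 CPM on the normal diet. It rested on 4 to 223 reads per library, and was called higher at 1 day on the vitamin A diet (log2 2.60, adjusted p = 0.00459) and on the normal diet (2.23, 0.0225, edgeR). The authors' deposited table for 3 days lists it at -1.17 for vitamin A over normal diet, with an adjusted p of 0.999.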
